A study of Homo sapiens with 16 samples.

Results

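The G2 and mitosis genes described here are 46 genes that act from the end of DNA replication to the separation of daughter cells. They were taken by gene symbol from a fixed list of names, and all 46 were found among the 57820 genes of the deposited table. RNA had been sequenced from SK-OV-3, an established human ovarian carcinoma cell line. The cells carried an shRNA to PRMT1 (shPRMT1 #1, #3 or #5, which are 3 different sequences) or the control shScramble. PRMT1 is a protein arginine methyltransferase. Each of the 4 populations was exposed to cisplatin, a platinum drug that crosslinks DNA, at 20 µM for 24 h or was left untreated. That makes 8 groups of 2 biological replicates, 16 libraries in all, and every population carried an shRNA, so no cells without one were compared. The labels do not say whether an shRNA population was a clone or a pool, or how the replicates were kept apart, so that p-values measure the spread between these libraries, which may be technical in part.

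Cyclin B bound to CDK1 drives a cell from G2 into mitosis, where the Polo-like and Aurora kinases, the kinesin motors and the kinetochores build the spindle and attach chromosomes to it. The spindle checkpoint holds the anaphase-promoting complex inactive until all chromosomes are attached, and that complex then marks securin and cyclin B for destruction. Transcription of these genes rises late in the cell cycle under FOXM1 and B-MYB bound to the MuvB complex. The DREAM complex, the repressor form of MuvB, keeps them off in resting cells and early in the cycle. In cells that have p53, p53 can bring DREAM back through the CDK inhibitor p21, the product of CDKN1A. SK-OV-3 is a line that lacks p53. In bulk RNA, fewer cells in G2 and mitosis and less RNA in each such cell cannot be told apart.

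The deposited values are RPKM, that is, read counts divided by gene model length and library total, and the recovered library totals lay between 12289300 and 16039735 reads. PRMT1 itself stood at 4.12 to 10.4 RPKM in the 12 shPRMT1 libraries, against 17.8 to 23.5 RPKM in the 4 shScramble libraries, which did not overlap. The mean with an shPRMT1 was 30.8% of shScramble both untreated and under cisplatin. CDKN1A was higher with cisplatin in both backgrounds, at 38.2 to 51.5 RPKM in shPRMT1 cisplatin libraries against 6.66 to 16 RPKM in shPRMT1 untreated libraries, and at 42.8 and 46.5 RPKM in shScramble cisplatin libraries against 7.58 and 7.30 RPKM in shScramble untreated libraries. The epithelial and ovarian carcinoma markers fitted the labelled line, since all 8 were present, with ERBB2 at 40.1 to 66.4 RPKM and PAX8 at 14.4 to 35.6 RPKM. Summed leukocyte markers were at 2.50 to 6.35 RPKM in shPRMT1 cisplatin libraries against 0.483 to 1.75 RPKM in the other libraries. The highest of the 8 were CD79A, at up to 3.05 RPKM in a library, and CD14, at up to 2.51 RPKM. PTPRC, the pan-leukocyte marker, was at most at 0.112 RPKM in any library, and 3 of the 8 were under 0.1 RPKM in all shPRMT1 cisplatin libraries. The part of these markers in the results was not tested. Summed fibroblast markers, with COL1A1 the highest of the 7 at 3.15 to 31.3 RPKM and PDGFRB at 0.0342 to 0.287 RPKM, were at 18.9 to 48.1 RPKM with cisplatin against 50.6 to 79.9 RPKM untreated, and their part was not tested either. Summed endothelial markers stayed between 0.321 and 1.68 RPKM.

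All 46 genes passed the filter on low values, which kept the 18149 genes that reached 1 RPKM in 2 libraries or more, and all 46 were at or above 1 RPKM in every library. Their levels ran from 8.58 RPKM for KIF14 in a shPRMT1 #5 cisplatin library to 90.0 RPKM for TOP2A in a shPRMT1 #3 untreated library. Each gene changed little over the series: the highest library was 2-fold or more above the lowest for 8 of the 46 genes, namely KIF23, CENPE, PLK1, KIF14, HMMR, CENPA, KIF20A and BUB1. RPKM is scaled by gene length, so levels may be set side by side, and the most abundant were TOP2A, TPX2 and ANLN, while KIF14, CCNF and KIF15 were the least abundant by mean RPKM.

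Promoter sequence was matched for 39 of the 46 genes in RefSeq (GRCh38.p14), as windows of 250 bases before and 50 bases after the annotated start. The cell cycle genes homology region (CHR), the element that MuvB complexes read, was searched as TTTGAA or TTCGAA on both strands. It occurred in 28 of the 39 windows (71.8%), against 5742 of 35116 windows of all genes (16.4%) and 2 of 25 windows of S phase genes (8%). The letters GGCGG, the core of the neighbouring cell cycle-dependent element, occurred in 39 of 39 windows of the mitotic genes (100%), in 24 of 25 S phase windows (96%) and in 59% of all windows. The NF-Y box CCAAT occurred in 29 of 39 (74.4%), in 16 of 25 S phase windows (64%) and in 34.6% of all windows. In cells that carried an shPRMT1, 14 of the 16 matched genes that were lower with cisplatin held a CHR, as did 2 of the 4 that were higher and 12 of the 19 that were not called. In shScramble cells the CHR was held by 5 of the 7 matched genes that were lower, 0 of the 2 that were higher and 23 of the 30 that were not called. The share among the lower genes thus stood above that of the uncalled genes in shPRMT1 cells and not in shScramble cells. However, all 8 genes called lower in shScramble cells were also called lower in shPRMT1 cells, which had 6 libraries a side rather than 2. Whether the CHR goes with the response was not tested. A match describes the letters in the window and is not evidence of binding.

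The 250 bases before the start are shown for 6 genes whose levels differed between groups, 5′ to 3′ on the gene's strand, with each CHR match in capitals. PLK1 (chr16:23678639-23678888, plus strand), CENPA (chr2:26785806-26786055, plus strand), KIF15 (chr3:44761544-44761793, plus strand) and MKI67 (chr10:128126424-128126673, minus strand) hold matches, and MKI67 holds 2. KIF20A (chr5:138178862-138179111, plus strand) and KIF2C (chr1:44739587-44739836, plus strand) hold none.
PLK1: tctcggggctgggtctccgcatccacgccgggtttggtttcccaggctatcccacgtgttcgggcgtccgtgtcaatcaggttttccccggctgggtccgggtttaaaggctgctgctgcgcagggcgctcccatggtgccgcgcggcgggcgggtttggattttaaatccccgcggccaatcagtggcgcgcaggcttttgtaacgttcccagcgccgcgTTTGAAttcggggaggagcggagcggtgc
CENPA: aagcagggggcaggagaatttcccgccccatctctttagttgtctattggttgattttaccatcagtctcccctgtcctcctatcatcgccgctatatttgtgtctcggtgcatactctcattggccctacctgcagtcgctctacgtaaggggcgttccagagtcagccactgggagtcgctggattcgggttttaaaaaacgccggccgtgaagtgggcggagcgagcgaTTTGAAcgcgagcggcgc
KIF15: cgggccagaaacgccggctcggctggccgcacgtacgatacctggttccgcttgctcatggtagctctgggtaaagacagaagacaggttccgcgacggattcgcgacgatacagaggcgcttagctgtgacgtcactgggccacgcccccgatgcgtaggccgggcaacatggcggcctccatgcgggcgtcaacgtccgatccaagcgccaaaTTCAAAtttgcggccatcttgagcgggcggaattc
MKI67: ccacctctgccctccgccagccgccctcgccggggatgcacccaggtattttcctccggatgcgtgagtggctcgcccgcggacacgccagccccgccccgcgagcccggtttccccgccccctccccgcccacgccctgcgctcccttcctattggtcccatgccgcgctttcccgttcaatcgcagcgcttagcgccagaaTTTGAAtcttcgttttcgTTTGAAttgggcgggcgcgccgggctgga
KIF20A: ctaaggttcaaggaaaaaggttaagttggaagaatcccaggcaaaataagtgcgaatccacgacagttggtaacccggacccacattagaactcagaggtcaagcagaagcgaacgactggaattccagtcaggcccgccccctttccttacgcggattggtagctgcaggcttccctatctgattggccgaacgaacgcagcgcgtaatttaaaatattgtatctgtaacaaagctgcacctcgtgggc
KIF2C: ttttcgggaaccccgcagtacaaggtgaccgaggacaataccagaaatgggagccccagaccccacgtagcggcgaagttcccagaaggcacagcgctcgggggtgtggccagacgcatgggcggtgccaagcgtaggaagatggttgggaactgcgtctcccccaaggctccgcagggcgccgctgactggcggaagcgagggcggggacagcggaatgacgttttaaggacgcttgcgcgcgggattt
The CHR begins 29 bases before the start in PLK1 and 18 bases before it in CENPA. In KIF15 it lies on the opposite strand, 35 bases before the start, and so reads TTCAAA on the gene's strand.

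The first comparison asked what 24 h of cisplatin did to these genes in shScramble cells. PLK1 and KIF20A, which work in mitotic entry and in cytokinesis, fell to about the same extent, CENPF, CCNB1, BUB1, CENPA, AURKA and CCNB2 fell less, and AURKB and KIF2C rose. Of the 46 genes 8 were called lower (17.4%) and 2 higher (4.35%), at an adjusted p under 0.05 over all 18149 genes. The background was 14.7% of all tested genes called lower and 15.5% called higher, so the share lower was near the background and the share higher was under it. The median log2 difference, on the log2(RPKM + 1) scale as are all differences here, was -0.08 over the 46 genes and -0.01 over all tested genes. With the replicate number as a block the counts were 14 lower and 3 higher, against backgrounds of 21.3% and 22.8%.

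PLK1, the Polo-like kinase that starts mitosis and matures centrosomes, had 12.9 and 15.1 RPKM in shScramble cisplatin libraries, against 25.4 and 29.6 RPKM in shScramble untreated libraries. Both cisplatin libraries lay under both untreated ones, at 50.9% of the untreated mean (log2 difference -0.92, SE 0.20, adjusted p = 0.00466). KIF20A, a kinesin needed for cytokinesis, had 28.7 and 27.1 RPKM with cisplatin, against 53.2 and 53.7 RPKM untreated. That was 52.3% of the untreated mean (log2 difference -0.91, SE 0.07, adjusted p = 4.3e-06).

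CCNB1, which encodes the cyclin that activates CDK1, had 48.1 and 43.6 RPKM in shScramble cisplatin libraries, against 65.7 and 65.4 RPKM in shScramble untreated libraries (log2 difference -0.51, SE 0.08, adjusted p = 0.000744). CDK1 itself had 46.3 and 44.4 RPKM with cisplatin and 41.8 and 37.7 RPKM untreated, which did not pass the test (log2 difference 0.19, SE 0.15, adjusted p = 0.411). The cyclin and its kinase thus stood on opposite sides of 0, the cyclin past the threshold and the kinase not.

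CENPF, a kinetochore protein that peaks in G2, had 27.6 and 25.9 RPKM with cisplatin in shScramble cells, against 40.5 and 38.0 RPKM untreated (log2 difference -0.54, SE 0.13, adjusted p = 0.0105). CENPA, the histone H3 variant that marks centromeres, had 23.0 and 20.1 RPKM with cisplatin, against 29.0 and 28.6 RPKM untreated (log2 difference -0.41, adjusted p = 0.0357). BUB1, a spindle checkpoint kinase, had 17.1 and 17.0 RPKM with cisplatin, against 24.5 and 22.0 RPKM untreated (log2 difference -0.43, adjusted p = 0.0126). Groups did not overlap for any of these 3 genes. AURKA, the kinase of spindle poles, had 37.1 and 36.3 RPKM with cisplatin, against 46.9 and 45.9 RPKM untreated (log2 difference -0.33, adjusted p = 0.017), and CCNB2 showed the smallest called fall, at -0.23.

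AURKB, the kinase of the chromosomal passenger complex that corrects wrong attachments at centromeres, went the other way. It had 26.8 and 27.6 RPKM with cisplatin in shScramble cells, against 18.5 and 20.6 RPKM untreated (log2 difference 0.45, SE 0.13, adjusted p = 0.0244). KIF2C, a kinesin that takes microtubules apart at kinetochores, had 58.9 and 58.7 RPKM with cisplatin, against 48.8 and 45.9 RPKM untreated (log2 difference 0.31, SE 0.08, adjusted p = 0.0139). The related Aurora kinases therefore differed in sign here, AURKA lower and AURKB higher with cisplatin, though both calls depended on single libraries.

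Single libraries decided many of these calls. Without shScramble cisplatin replicate 1 the counts were 4 lower and 0 higher, and without replicate 2 they were 3 and 0. Without shScramble untreated replicate 1 they were 4 lower and 1 higher, and without replicate 2 they were 5 and 1. PLK1, KIF20A and CCNB1 were called lower in each of these 4 refits. AURKA and CENPA lost the call in each of them, and AURKB, KIF2C, BUB1, CCNB2 and CENPF lost it in some. CENPA also lost it in the limma fit with no filter (adjusted p = 0.0679). The block added KIF14 (-0.46), CCNF (-0.42), DLGAP5 (-0.38), CDC25B (-0.28), CDC20 (-0.22) and PRC1 (-0.15) to the genes called lower, with blocked adjusted p between 0.00244 for CDC25B and 0.0496 for PRC1. It added KIF15 (0.46, blocked adjusted p = 0.00183) to those called higher.

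**Figure D1:**
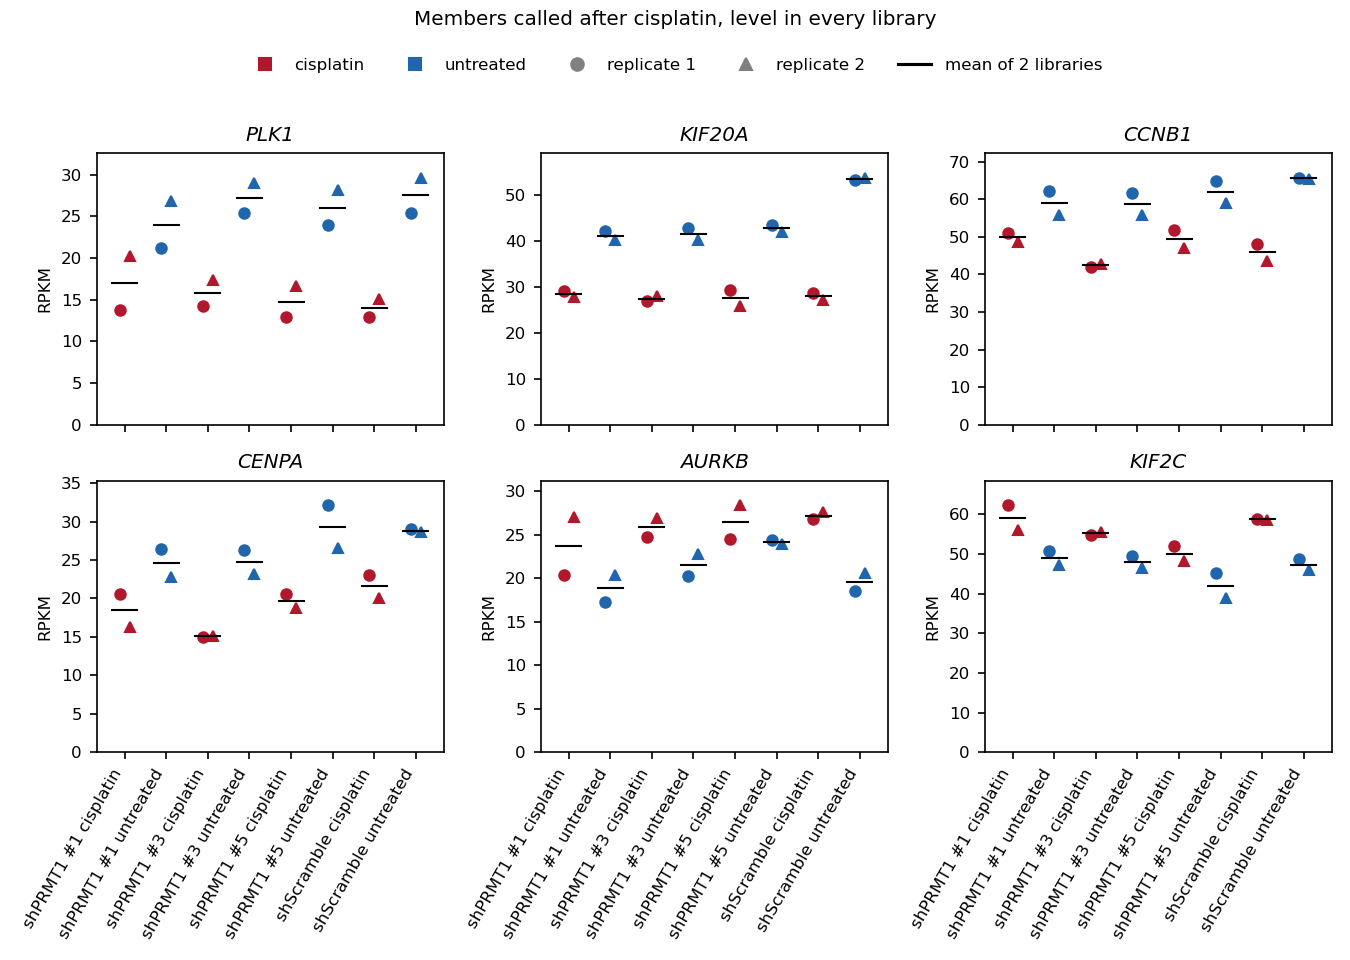
RPKM of PLK1, KIF20A, CCNB1, CENPA, AURKB and KIF2C in each of the 16 libraries, with the group on the horizontal axis, circles for replicate 1, triangles for replicate 2 and a bar at the mean of 2 libraries. Cisplatin libraries of KIF20A lie between 25.9 and 29.3 RPKM in all 4 populations, and untreated libraries lie between 40.1 and 43.4 RPKM in shPRMT1 cells and at 53.2 and 53.7 RPKM in shScramble cells.

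The same exposure was then compared in shPRMT1 cells, averaging the 3 shRNAs, which gives 6 libraries a side. Cyclin B, PLK1 and AURKA fell again, 6 of 9 kinesins and 3 of 5 centromere and kinetochore genes fell, and FOXM1, MKI67, KIF2C, AURKB and KIF23 rose. In all 17 of 46 genes were called lower (37%) and 5 higher (10.9%), against a background of 23.6% of all tested genes lower and 30.4% higher. The median log2 difference was -0.12 over the 46 genes and 0.04 over all tested genes. With the block 25 genes were lower and 12 higher, against backgrounds of 29.0% and 36.7%.

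PLK1 had 12.9 RPKM at the lowest, 15.4 at the median and 20.2 at the highest in shPRMT1 cisplatin libraries, against 21.2, 26.1 and 29.0 RPKM in shPRMT1 untreated libraries. The groups did not overlap, and the cisplatin mean was 61.5% of the untreated one (log2 difference -0.68, SE 0.11, adjusted p = 0.000447). KIF20A had 25.9, 27.8 and 29.3 RPKM with cisplatin, against 40.1, 42.1 and 43.4 RPKM untreated, and did not overlap either (log2 difference -0.57, SE 0.04, adjusted p = 5.24e-07). CENPA had 15.0, 17.6 and 20.6 RPKM with cisplatin, against 22.8, 26.3 and 32.1 RPKM untreated (log2 difference -0.54, SE 0.07, adjusted p = 0.000106). CCNB1 had 42.0, 47.8 and 51.7 RPKM with cisplatin, against 55.7, 60.3 and 65.0 RPKM untreated (log2 difference -0.34, SE 0.05, adjusted p = 9.97e-05). The libraries of CENPA and CCNB1 did not overlap between cisplatin and untreated either.

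In the other genes called lower the groups overlapped when the 3 shRNAs and both replicate numbers were pooled. Within pairs of the same shRNA and replicate number, KIF18A, KIF15 and KIF4A were each higher with cisplatin in 1 of 6 pairs. The rest of these genes were higher in 0 of 6. KIF14, a kinesin of the midbody, had 8.58, 10.8 and 15.2 RPKM in shPRMT1 cisplatin libraries, against 12.3, 15.5 and 19.5 RPKM in shPRMT1 untreated libraries (log2 difference -0.45, adjusted p = 0.00248). DLGAP5 and HMMR, which bundle and anchor spindle microtubules, had log2 differences of -0.45 and -0.42 (adjusted p = 0.00104 and 0.00592). BUB1 (-0.37), CENPF (-0.36), KIF18A (-0.29), NUF2 (-0.27), KIF15 (-0.27), KIF11 (-0.24), AURKA (-0.22), CDC20 (-0.16), CCNB2 (-0.16) and KIF4A (-0.13) were the other genes called lower. Of the 12 refits that left out 1 library, KIF4A lost the call in 8 (adjusted p up to 0.121), KIF15 (up to 0.101), CDC20 (0.0775), KIF18A (0.0722) and KIF11 (0.0666) in 6 each, and NUF2 in 1 (0.0519). With no filter KIF4A (0.0685), KIF15 (0.0632) and CDC20 (0.057) lost it, and with the compared groups alone KIF4A (0.0715), KIF15 (0.0638) and KIF18A (0.0503) did. The refits without 1 library held no replicate term. Among them KIF11, KIF15 and KIF18A lost the call only without a cisplatin replicate 2 or an untreated replicate 1. CDC20 lost it only without a cisplatin replicate 1 or an untreated replicate 2. With the block all 22 genes called in either direction kept the call.

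FOXM1, the transcription factor that drives late cell cycle genes, rose in shPRMT1 cells. It had 18.2, 22.4 and 24.7 RPKM with cisplatin, against 13.3, 20.1 and 21.7 RPKM untreated, and was higher in 6 of 6 pairs (log2 difference 0.25, SE 0.05, adjusted p = 0.00105). MKI67, which coats mitotic chromosomes and is read in pathology as a marker of dividing cells, had 36.6, 43.9 and 52.9 RPKM with cisplatin, against 31.6, 38.3 and 46.2 RPKM untreated (log2 difference 0.23, adjusted p = 0.0102). KIF2C rose by 0.24 (adjusted p = 0.00118), AURKB by 0.23 (adjusted p = 0.0273) and KIF23, a kinesin of the central spindle, by 0.20 (adjusted p = 0.0244). The KIF23 call was lost under TMM scaling (adjusted p = 0.0825). AURKB and KIF23 each lost theirs in 6 of the 12 refits without 1 library, which held no replicate term. Among those refits KIF23 lost it only without a cisplatin replicate 1 or an untreated replicate 2. With the block both calls were kept. In shScramble cells the cisplatin differences of FOXM1 and MKI67 were 0.01 and -0.07. The difference between the responses was 0.24 for FOXM1 (adjusted p = 0.196) and 0.31 for MKI67 (adjusted p = 0.225), so neither was shown to differ between the backgrounds. The count of genes called higher was 8 without shPRMT1 #1 cisplatin replicate 2 or #5 untreated replicate 1, and 3 without #5 untreated replicate 2.

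TOP2A, the topoisomerase that untangles sister chromatids, had 65.7, 74.3 and 77.5 RPKM in shPRMT1 cisplatin libraries, against 70.2, 79.7 and 90.0 RPKM in shPRMT1 untreated libraries (log2 difference -0.12, adjusted p = 0.0664, and 0.0105 with the block). CDC20, the activator of the anaphase-promoting complex, had 46.7, 52.4 and 57.1 RPKM with cisplatin, against 53.2, 58.7 and 62.1 RPKM untreated (log2 difference -0.16, adjusted p = 0.0277). CDK1 had 38.9, 42.1 and 52.5 RPKM with cisplatin, against 32.9, 39.0 and 47.1 RPKM untreated (log2 difference 0.14, adjusted p = 0.215, and 0.0218 with the block). The block also added TTK, BUB1B, CCNA2, CCNF, CDC25B, KIFC1, PRC1 and TOP2A to the genes called lower, and CDK1, BUB3, MAD2L1, UBE2C, PTTG1, CKAP2 and ECT2 to those called higher.

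The cisplatin comparisons in the 2 backgrounds share no library. They do share the estimate of each gene's spread, which came from a single model, so the 2 lists of calls are not independent. Each of the 8 genes called lower in shScramble cells was also called lower in shPRMT1 cells, which is 100% of the first list and 47.1% of the second. Both genes called higher in shScramble cells, AURKB and KIF2C, were called higher in shPRMT1 cells, 100% of the first list and 40% of the second. Over all tested genes the calls overlapped widely too: of those called lower, 2312 were shared, 86.9% of the shScramble list and 54% of the shPRMT1 list, and of those called higher, 2461 were shared, 87.4% and 44.7%. Members called in shPRMT1 cells and not in shScramble cells were tested in shPRMT1 cells with 6 libraries a side rather than 2. Of these members KIF15, KIF18A, KIF11 and MKI67 had the opposite sign in shScramble cells, at 0.46, 0.21, 0.02 and -0.07. The others had the same sign in both.

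By role, the kinesins and the mitotic kinases held calls in both directions. Among the 4 kinases PLK1 and AURKA were lower and AURKB higher in both backgrounds. Among the kinesins, with cisplatin, KIF20A, KIF14, KIF18A, KIF15, KIF11 and KIF4A were lower and KIF2C and KIF23 higher in shPRMT1 cells, and KIF20A was lower and KIF2C higher in shScramble cells. Of the 8 checkpoint and anaphase-promoting complex genes, 2 were lower in shPRMT1 cells (BUB1 and CDC20) and 1 in shScramble cells (BUB1). BUB1B, BUB3, TTK, MAD2L1, the ubiquitin-conjugating enzyme UBE2C and the securin PTTG1 were called in neither. None of the cytokinesis and passenger group (PRC1, ECT2, ANLN and BIRC5) was called in either. With the block, PRC1 was called lower in both backgrounds and ECT2 higher in shPRMT1 cells.

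**Figure D2:**
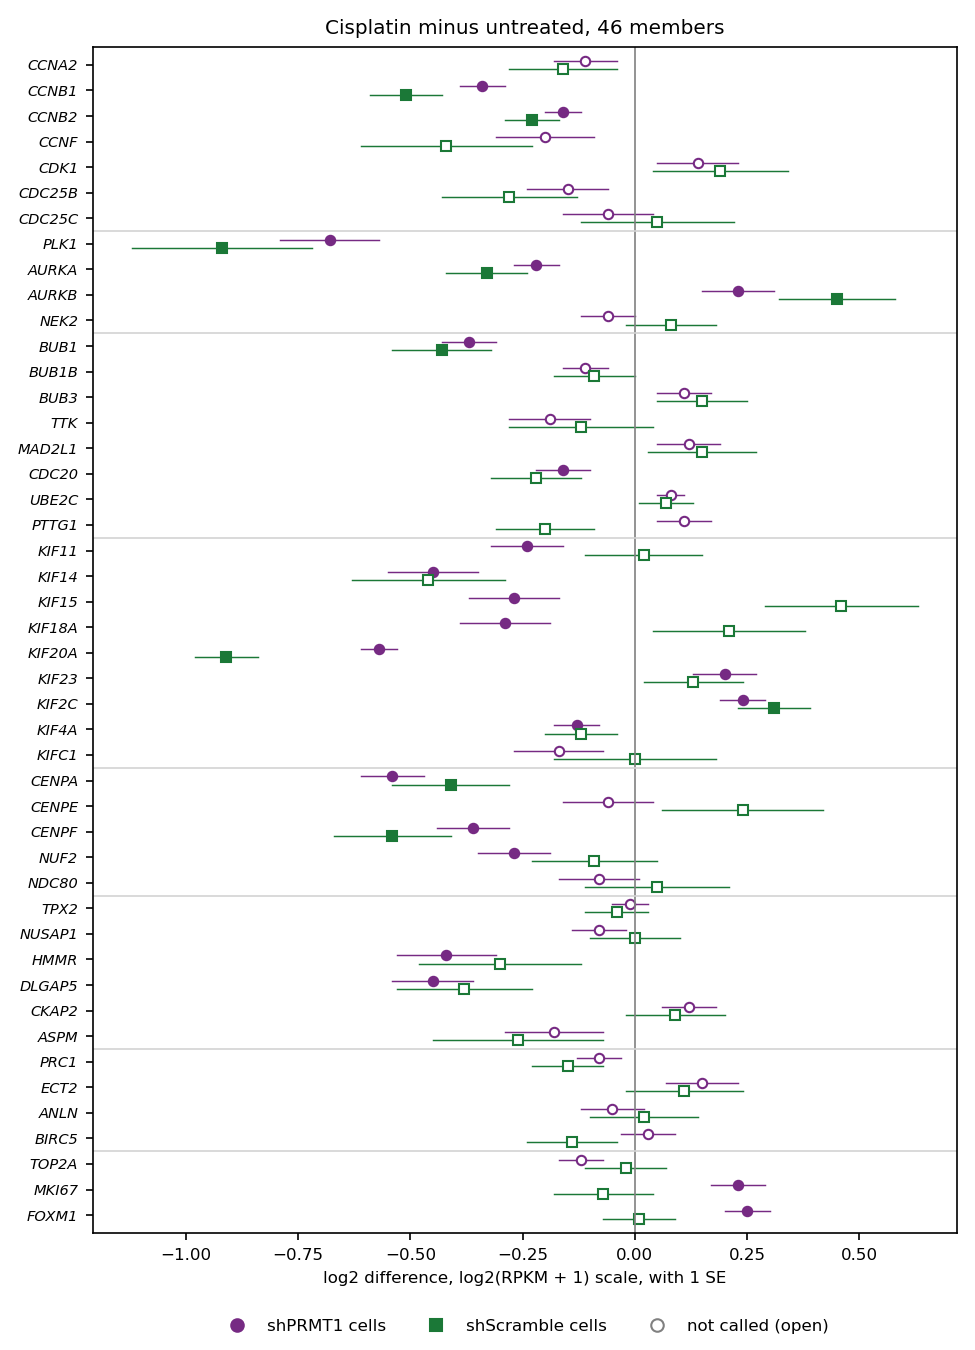
Log2 difference, cisplatin minus untreated, of each of the 46 genes on the log2(RPKM + 1) scale, with bars of 1 SE, circles for shPRMT1 cells and squares for shScramble cells, filled where called at an adjusted p under 0.05, in blocks by role. PLK1 and KIF20A lie farthest to the left in both backgrounds, and KIF15 and KIF18A lie below 0 in shPRMT1 cells and above 0 in shScramble cells.

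Over the whole list the sum of RPKM moved little. The 46 genes summed to 1537 to 1730 RPKM in shPRMT1 cisplatin libraries against 1598 to 1885 RPKM in shPRMT1 untreated libraries. In shScramble cells they summed to 1755 and 1714 RPKM with cisplatin, against 1875 and 1842 RPKM untreated. Within each pair of the same population and replicate number the sum was lower with cisplatin. The 28 S phase genes, given for scale, summed to 901.8 to 973.1 RPKM in shPRMT1 cisplatin libraries against 557.2 to 719.4 RPKM in shPRMT1 untreated libraries, and to 1046 and 1050 RPKM in shScramble cisplatin libraries against 703.8 and 702.3 RPKM in shScramble untreated libraries. Of these 28 genes, 23 were higher and 1 lower with cisplatin in shPRMT1 cells (85.7% called). The background was 30.4% of all tested genes higher and 23.6% lower. In shScramble cells 19 were higher (67.9%) and 0 lower, against 15.5% and 14.7%. By voom 16 were higher in shScramble cells, and 0 were lower there by voom or at an unadjusted p under 0.05.

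**Figure D3:**
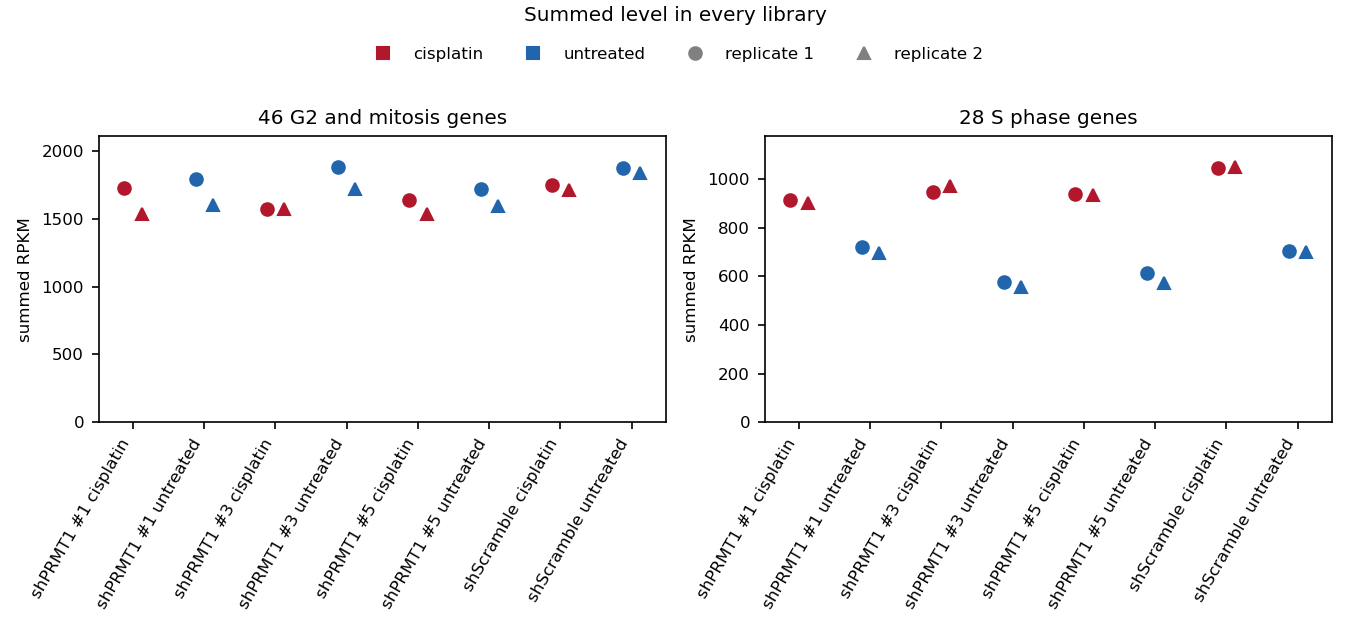
Summed RPKM of the 46 G2 and mitosis genes (left) and of 28 S phase genes (right) in each library, by group, with circles for replicate 1 and triangles for replicate 2 and both axes from 0. The S phase sums of cisplatin libraries all lie at or above 901.8 RPKM and those of untreated libraries at or below 719.4 RPKM. The sums of the mitotic genes overlap between cisplatin and untreated libraries of shPRMT1 cells, but are lower with cisplatin in each pair of the same shRNA and replicate number.

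The knockdown was compared next, first without cisplatin. All shScramble libraries came from a single control population, and the p-values measure spread between replicate libraries, not between populations. A trait of that population therefore cannot be told apart from an effect of PRMT1 loss in any comparison with shScramble. KIF4A, FOXM1, MKI67 and KIF20A were lower in shPRMT1 cells than in shScramble cells, and 0 of the 46 were called higher by limma, at an unadjusted p under 0.05 or by voom. The 4 genes are 8.70% of the list, against a background of 3.83% of all tested genes called lower and 4.41% called higher. The fitted difference was below 0 for 39 of the 46 genes and for 9041 of the 18149 tested genes, with medians of -0.10 and 0.00. With the block the count was 9 lower and 0 higher, against backgrounds of 9.64% and 10.7%.

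KIF4A, a chromokinesin that shapes chromosomes and the central spindle, had 22.3, 30.8 and 36.8 RPKM at the lowest, median and highest of the shPRMT1 untreated libraries, against 42.8 and 40.0 RPKM in shScramble untreated libraries. It was at 72.1% of the shScramble mean (log2 difference -0.48, SE 0.07, adjusted p = 0.0025). FOXM1 had 13.3, 20.1 and 21.7 RPKM in shPRMT1 untreated libraries, against 26.0 and 23.6 RPKM in shScramble ones (log2 difference -0.44, SE 0.07, adjusted p = 0.00297). Neither gene overlapped between the groups.

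MKI67 had 31.6, 38.3 and 46.2 RPKM in shPRMT1 untreated libraries, against 53.5 and 48.1 RPKM in shScramble ones (log2 difference -0.41, SE 0.09, adjusted p = 0.0215). KIF20A had 40.1, 42.1 and 43.4 RPKM, against 53.2 and 53.7 RPKM (log2 difference -0.35, SE 0.06, adjusted p = 0.00424). Its 3 shRNAs lay close together, at 77.0%, 77.7% and 79.9% of the shScramble mean for #1, #3 and #5. Without shScramble untreated replicate 1, FOXM1 (adjusted p = 0.0561) and MKI67 (0.198) lost the call, and without replicate 2 KIF20A (0.0635) and MKI67 (0.0943) did, so that 2 genes were called in each case. MKI67 also lost it with the compared groups alone (0.0829) and without shPRMT1 #3 untreated replicate 2 (0.0508). KIF4A kept it in all 14 alternatives.

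Among the genes that did not pass, CCNB1 had 55.7, 60.3 and 65.0 RPKM in shPRMT1 untreated libraries, against 65.7 and 65.4 RPKM in shScramble ones. PLK1 had 21.2, 26.1 and 29.0 RPKM against 25.4 and 29.6 RPKM, AURKA had 34.4, 43.2 and 48.1 RPKM against 46.9 and 45.9 RPKM, and TOP2A had 70.2, 79.7 and 90.0 RPKM against 81.3 and 77.2 RPKM. CDC20 had 53.2, 58.7 and 62.1 RPKM against 65.5 and 73.8 RPKM, without overlap (log2 difference -0.25, adjusted p = 0.0782, and 0.00283 with the block). The block also called KIF23 (-0.29, blocked adjusted p = 0.00792), BIRC5 (-0.23, 0.0237), TPX2 (-0.17, 0.0178) and NUSAP1 (-0.15, 0.0404) lower.

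Under cisplatin, shPRMT1 cells had lower levels of 4 kinesins than shScramble cells, KIF15, KIF4A, KIF18A and KIF11. Again 0 of the 46 were called higher by limma, at an unadjusted p under 0.05 or by voom. The 4 genes are 8.70% of the list, against a background of 9.36% of all tested genes called lower and 10.4% called higher, a share near the background. As without cisplatin, 39 of the 46 fitted differences were below 0, against 8522 of 18149 over all tested genes, with medians of -0.10 and 0.02. With the block 15 genes were lower and 1 higher, against backgrounds of 16.5% and 18.1%.

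KIF15, a kinesin that holds spindle poles apart alongside KIF11, had 12.5, 14.2 and 17.2 RPKM in shPRMT1 cisplatin libraries, against 23.0 and 23.1 RPKM in shScramble cisplatin libraries. The groups were well apart, and the 3 shRNAs stood at 64.3%, 60% and 61.5% of shScramble for #1, #3 and #5 (log2 difference -0.66, SE 0.14, adjusted p = 0.00789). KIF4A had 23.4, 25.2 and 32.6 RPKM, against 39.1 and 37.2 RPKM (log2 difference -0.49, SE 0.07, adjusted p = 0.00095). KIF18A, which shortens and steadies microtubules at chromosomes, had 19.0, 23.4 and 30.5 RPKM, against 33.1 and 32.7 RPKM (log2 difference -0.44, adjusted p = 0.0446). KIF11, the motor that pushes the poles apart, had 25.3, 26.6 and 32.5 RPKM, against 38.1 and 34.0 RPKM (log2 difference -0.36, adjusted p = 0.0424).

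Without shScramble cisplatin replicate 1, KIF15 (adjusted p = 0.0798), KIF18A (0.228) and KIF11 (0.322) lost the call. Without replicate 2 of that group the same 3 did (0.0643, 0.188 and 0.101), so 1 gene, KIF4A, was called in either case. The count was 2 without shPRMT1 #3 cisplatin replicate 1 or 2 or without shPRMT1 #5 cisplatin replicate 2, and 9 lower with 1 higher without shPRMT1 #1 cisplatin replicate 1. The block called CENPE (-0.42), NUF2 (-0.30), CENPA (-0.27), KIFC1 (-0.26), NUSAP1 (-0.24), KIF23 (-0.22), NEK2 (-0.21), FOXM1 (-0.21), CDC20 (-0.19), BUB1B (-0.14) and TPX2 (-0.14) lower as well, and CCNF (0.32) higher.

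PLK1, CCNB1, CDK1, AURKA and TOP2A passed no test of the knockdown under cisplatin. PLK1 had 12.9, 15.4 and 20.2 RPKM in shPRMT1 cisplatin libraries, against 12.9 and 15.1 RPKM in shScramble ones, and KIF20A had 25.9, 27.8 and 29.3 RPKM against 28.7 and 27.1 RPKM. MKI67 had 36.6, 43.9 and 52.9 RPKM, against 49.0 and 47.3 RPKM, and FOXM1 had 18.2, 22.4 and 24.7 RPKM, against 26.4 and 23.6 RPKM (adjusted p = 0.0514). Of the 4 genes lower without cisplatin, KIF4A was thus called under cisplatin too.

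The 4 called genes are among the longer ones of the list. KIF15, KIF4A, KIF18A and KIF11 span 111.7, 130.8, 87.69 and 62.11 kb in the table's gene models. CENPE and NUF2, at 92.61 and 89.19 kb, are longer than KIF18A and KIF11 and were not called. Nor were ECT2 (70.79 kb), KIF14 (69.24 kb), ANLN (63.99 kb), ASPM (62.57 kb) and TPX2 (62.54 kb), which are longer than KIF11. Over the 46 genes, the knockdown difference under cisplatin went with the logarithm of the span at Pearson r = -0.50 and Spearman rho = -0.48, and over all 18149 tested genes at -0.27 and -0.28. For the knockdown without cisplatin the values were -0.01 and -0.01 over the 46 genes and 0.08 and 0.07 over all tested genes. For cisplatin in shPRMT1 cells they were -0.21 and -0.23 over the 46 genes and -0.32 and -0.31 over all, and for cisplatin in shScramble cells 0.13 and 0.11 over the 46 genes and -0.12 and -0.10 over all. These correlations are across genes measured in the same libraries, so genes are not independent replicates, and they are given as a description.

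**Figure D4:**
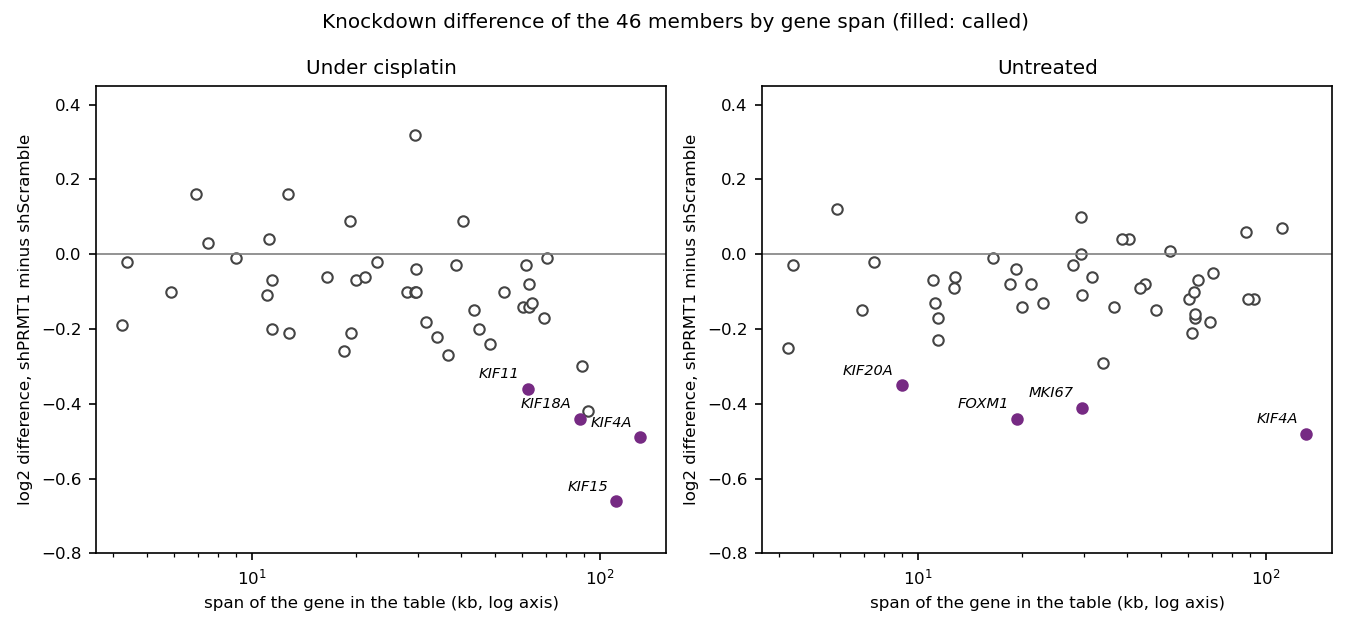
Log2 difference, shPRMT1 minus shScramble, against the span of each of the 46 genes in kb on a log axis, under cisplatin (left) and untreated (right), with genes called at an adjusted p under 0.05 filled and named. Under cisplatin KIF15, at 111.7 kb, lies lowest at -0.66, and untreated the called genes KIF20A, FOXM1, MKI67 and KIF4A are spread from 8.998 to 130.8 kb.

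The cisplatin responses of the 2 backgrounds were compared directly, as the response in shPRMT1 cells minus that in shScramble cells. KIF20A differed. On the log2 scale it fell by 0.57 in shPRMT1 cells and by 0.91 in shScramble cells (difference 0.34, SE 0.08, adjusted p = 0.0354). Its means were 27.8 RPKM in shPRMT1 and 27.9 RPKM in shScramble cells with cisplatin, and 41.8 RPKM in shPRMT1 and 53.4 RPKM in shScramble cells untreated. It was the 1 gene called higher (2.17% of the list), against a background of 2.08% of all tested genes called higher and 3.11% lower. By limma 0 were called lower, 2 were lower at an unadjusted p under 0.05, and voom called 1 lower, KIF15. KIF20A lost the call under TMM scaling (adjusted p = 0.0946), without the filter on low values (0.0562), with voom on the recovered reads (0.056) and in 11 of 16 refits that left out 1 library, up to 0.158. It kept the call without shPRMT1 #1 cisplatin replicate 1 or 2, #1 untreated replicate 1, or #5 cisplatin replicate 1 or 2.

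KIF15 had the largest difference between responses of the list, at -0.74 (SE 0.20, adjusted p = 0.0603). In shPRMT1 cells its cisplatin difference was -0.35, -0.46 and -0.02 for shRNAs #1, #3 and #5, and in shScramble cells it was 0.46, where both libraries with cisplatin (23.0 and 23.1 RPKM) lay above both without (17.4 and 15.6 RPKM). KIF18A differed by -0.50 (adjusted p = 0.178) and CENPE by -0.30 (adjusted p = 0.504), neither past the threshold. With the block KIF15 (blocked adjusted p = 0.00175), KIF18A (0.014) and KIF11 (0.0345) were called lower and PTTG1 (0.0434) higher beside KIF20A, which makes 2 higher and 3 lower against backgrounds of 6.20% and 7.78%.

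The 3 shRNAs did not give the same levels of all genes. They were compared with each other by an F-test, which asks for any difference among the 3. Untreated, 6 of the 46 genes differed, namely KIF23, FOXM1, CENPE, KIF4A, BUB1 and AURKA (13%), against a background of 22.5% of all tested genes, and 23 differed with the block against 41.0%. Under cisplatin 3 differed, KIF23, AURKA and KIF4A (6.52%), against a background of 11.3%, and 14 differed with the block against 28%.

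KIF23, whose protein bundles the central spindle with RACGAP1, was low with shPRMT1 #1. It had 18.9 and 16.1 RPKM in shPRMT1 #1 untreated libraries, 38.0 and 34.6 RPKM with #3, 32.4 and 29.3 RPKM with #5, and 32.9 and 33.3 RPKM with shScramble (adjusted p = 0.000397 among the shRNAs). Under cisplatin it had 24.2 and 19.2 RPKM with #1, 37.8 and 37.5 RPKM with #3, 39.6 and 34.7 RPKM with #5, and 37.4 and 35.5 RPKM with shScramble (adjusted p = 0.00278). Untreated #1 stood at 52.7% of shScramble, where #3 and #5 stood at 110% and 93.2%.

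CENPE, the kinesin that carries chromosomes to the spindle equator, was low with shPRMT1 #5. Untreated it had 36.8 and 28.4 RPKM with #1, 37.5 and 30.8 RPKM with #3, 15.2 and 15.6 RPKM with #5, and 28.6 and 27.4 RPKM with shScramble (adjusted p = 0.00232). FOXM1 was low with shPRMT1 #3. Untreated it had 21.7 and 20.5 RPKM with #1, 13.3 and 14.1 RPKM with #3, 20.0 and 20.2 RPKM with #5, and 26.0 and 23.6 RPKM with shScramble (adjusted p = 0.00104). All 3 shRNAs lay under shScramble for FOXM1, at 84.9%, 55.4% and 81.0%.

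KIF4A was lowest with shPRMT1 #3 as well. Untreated it had 36.8 and 33.7 RPKM with #1, 24.6 and 22.3 RPKM with #3, 32.7 and 28.9 RPKM with #5, and 42.8 and 40.0 RPKM with shScramble (adjusted p = 0.00238). Under cisplatin it had 32.6 and 32.1 RPKM with #1, 23.8 and 23.4 RPKM with #3, 26.6 and 23.7 RPKM with #5, and 39.1 and 37.2 RPKM with shScramble (adjusted p = 0.0151). All 12 shPRMT1 libraries lay under all 4 shScramble libraries.

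AURKA and BUB1 were lower with #5 than with the other shRNAs when untreated. AURKA had 48.1 and 43.7 RPKM with #1, 47.4 and 42.7 RPKM with #3, 38.8 and 34.4 RPKM with #5, and 46.9 and 45.9 RPKM with shScramble (adjusted p = 0.0394). BUB1 had 26.5 and 23.1 RPKM with #1, 29.5 and 26.3 RPKM with #3, 20.8 and 18.5 RPKM with #5, and 24.5 and 22.0 RPKM with shScramble (adjusted p = 0.0208). Under cisplatin AURKA had 47.2 and 41.3 RPKM with #1, 34.3 and 35.2 RPKM with #3, 32.7 and 29.4 RPKM with #5, and 37.1 and 36.3 RPKM with shScramble (adjusted p = 0.0123). With #1 the cisplatin libraries of AURKA overlapped its untreated ones, at a log2 difference of -0.05, against -0.36 with #3, -0.23 with #5 and -0.33 in shScramble cells.

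**Figure D5:**
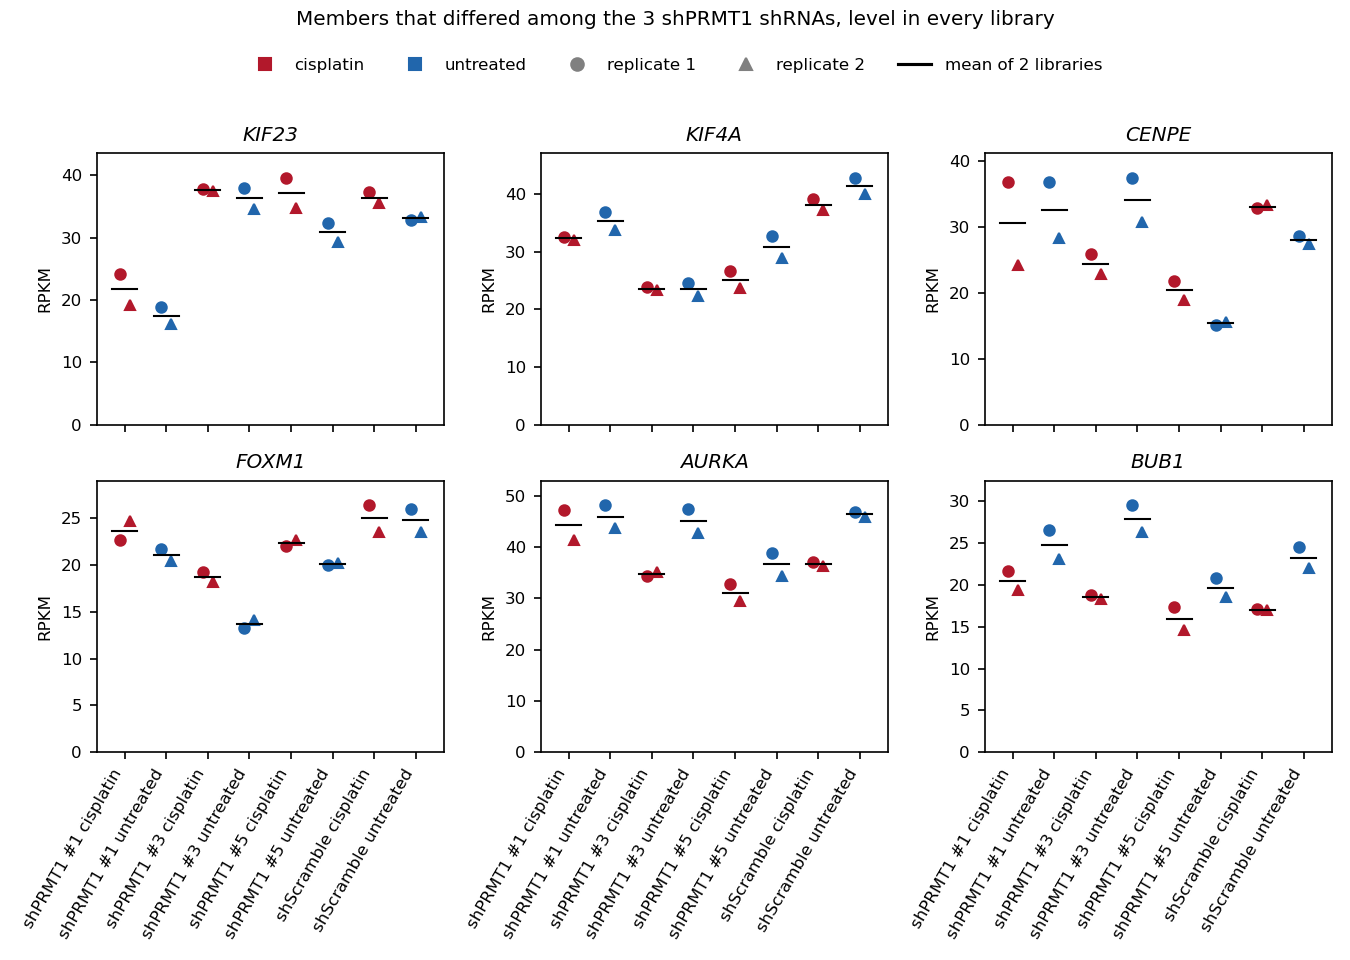
RPKM of the 6 genes that differed among the 3 shPRMT1 shRNAs untreated, in each of the 16 libraries, with circles for replicate 1, triangles for replicate 2 and a bar at the mean of 2 libraries. KIF23 is low with shPRMT1 #1 both with and without cisplatin, FOXM1 and KIF4A are lowest with #3, and CENPE is at 15.2 and 15.6 RPKM with #5 untreated.

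Untreated, AURKA and BUB1 lost the call without shPRMT1 #3 untreated replicate 1 (adjusted p = 0.0805 and 0.0904) or #5 untreated replicate 2 (0.287 and 0.139), and AURKA also without #1 untreated replicate 1 (0.0913). Under cisplatin, AURKA lost it without #1 cisplatin replicate 1 (0.0617) or #5 cisplatin replicate 2 (0.0534), and KIF4A without either #1 or either #3 cisplatin replicate (0.0504 to 0.0608). Fitted to the shPRMT1 groups alone, 3 genes differed among the shRNAs untreated and 0 under cisplatin by limma, where 6 had an unadjusted p under 0.05 and KIF23 an adjusted p of 0.147. Within a group, replicate 1 and replicate 2 differed in a common way across the 18149 tested genes, with correlations of 0.296 to 0.699 between groups. CDK1, BUB1, KIF11 and KIF4A were among the genes higher in replicate 1 in all 8 groups, and others of the 46 were lower in all 8.

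The TruSeq v2 kit keeps no strand, so reads from overlapping genes on the opposite strand cannot be told apart from those of a member. KIF20A overlaps CDC23 (mean 34.8 RPKM) and BRD8 (18.2 RPKM), KIF4A overlaps PDZD11 (40.2 RPKM), FOXM1 overlaps RHNO1 (19.5 RPKM), CCNA2 overlaps EXOSC9 (19.1 RPKM) and CDC25C overlaps FAM53C (22.9 RPKM) on the opposite strand, and CENPA overlaps SLC35F6 (43.1 RPKM) on the same one. How shared reads were counted is not given in the sources used here. Copies that could share reads with a member were low, at most 2.54 RPKM for PTTG3P beside PTTG1, 2.07 RPKM for UBE2CP2 beside UBE2C, 0.852 RPKM for CDC20P1 beside CDC20 and 0.508 RPKM for KIF4B beside KIF4A.

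Other genes of the same pathway, from lists that hold none of the 46, moved as follows with cisplatin, against the background given above of 30.4% of all tested genes higher and 23.6% lower in shPRMT1 cells, and 15.5% and 14.7% in shScramble cells. Of 31 other mitosis genes 8 were higher and 5 lower in shPRMT1 cells, and 10 higher and 2 lower in shScramble cells. CDCA5, the sororin that protects cohesion, rose by 0.77 and 0.74 (adjusted p = 1.72e-08 and 6.12e-06), SKA1 of the outer kinetochore by 0.50 and 0.76, and CDCA3, which helps to destroy WEE1, fell by 0.61 and 0.73 in shPRMT1 and shScramble cells. Of 12 condensin and cohesin genes 4 were higher and 2 lower in shPRMT1 cells, and 2 higher and 2 lower in shScramble cells, with the cohesin subunit STAG1 lower by 1.92 and 1.30 on the log2 scale.

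Of 11 genes that gate entry into mitosis, 5 were higher and 2 lower with cisplatin in shPRMT1 cells, and 4 were higher in shScramble cells. CDKN1A rose by 1.88 and 2.43, GADD45A by 0.83 and 1.33 and the phosphatase CDC25A by 1.48 and 1.66 in shPRMT1 and shScramble cells. The GADD45A response differed between the backgrounds (difference -0.50, adjusted p = 0.0263). Among 15 genes of the MuvB, B-MYB, E2F4 and NF-Y factors, RBL2, a DREAM subunit, fell by 0.77 and 0.95 and TFDP2 by 0.83 and 0.73. Binding of these factors to the promoters shown above was not measured. Of 14 anaphase-promoting complex genes 3 were higher in shPRMT1 cells, and 2 were higher in shScramble cells, with FBXO5 (EMI1, an inhibitor of the complex) higher by 0.66 and 0.60 (adjusted p = 4.04e-05 and 0.00733).

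For the knockdown, 3 of the 31 other mitosis genes (9.68%) were lower without cisplatin and 6 (19.4%) under it, against backgrounds of 3.83% and 9.36%. SPC24, a subunit of the NDC80 complex, fell by 0.44 untreated and by 0.72 under cisplatin (adjusted p = 0.0209 and 0.000829), and RACGAP1, the partner of KIF23, fell by 0.38 untreated (adjusted p = 0.0145). FAM64A (0.57) and GTSE1 (0.57) fell under cisplatin (adjusted p = 0.00451 and 0.0108). Of the gate genes CDKN1A, GADD45A and CDC25A rose untreated, by 0.55, 0.45 and 0.68. CDKN1A stood above shScramble with 2 of the 3 shRNAs, at means of 14.1 RPKM with #1, 7.26 RPKM with #3 and 14.3 RPKM with #5, against 7.44 RPKM with shScramble. Its call was lost with the compared groups alone (adjusted p = 0.0674) and without shScramble untreated replicate 1 or 2 (0.0919 and 0.144). Of 28 S phase genes 6 were lower untreated and 10 under cisplatin, E2F2 by 0.64 and 1.21.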

How the data were processed

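The authors deposited 1 table of linear RPKM values for 57820 genes in 16 SK-OV-3 libraries, 1 library to a column, per the file headers. Per the labels' protocols, total RNA came from RNeasy Plus Micro columns, and the TruSeq RNA v2 kit, which keeps no strand, gave the libraries. The submitters' processing notes name HISAT2, DESeq2 and the builds GRCh37 and mm9, with no version or role. For the counting program, annotation release and duplicate handling, the answer is not given in the sources used here. The table's own gene spans are used, taken as GRCh37.

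Whole reads were recovered from the RPKM steps for 40649 of 40649 genes with a value above 0 (100%, within 0.01 reads). Library totals were 12289300 to 16039735 reads, the largest 1.31 times the smallest, and 3 reads in a 2 kb gene model equal 0.094 to 0.122 RPKM, a floor that covers counting error only. No replicate pair agreed within sampling noise: chi-square per degree of freedom was 5.157 to 34.75.

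Differences were fitted with limma 3.58.1 (trended prior, R 4.3.3) on log2(RPKM + 1), which understates the change of low genes, over the 18149 genes that reached 1 RPKM in 2 libraries or more. A single model of 8 group means held the 16 libraries. Benjamini-Hochberg adjustment ran over all tested genes, and a call is an adjusted p under 0.05. The shPRMT1 value is the mean of the 3 shRNAs. Tests were two-sided, and the procedure was tested on simulated data.

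The replicate numbers pair the libraries: replicate 1 minus replicate 2 correlated across genes between all 28 of 28 pairs of groups, at 0.296 to 0.699. Blocked values, with replicate number as a term, are therefore given where they change a call or a count. The alternatives were TMM scaling, a pseudocount of 0.1 RPKM, no filter, voom on the recovered reads, the compared groups alone, the block and leaving out each library. The refits that left out 1 library had no replicate term, so each also unbalanced the replicate numbers between the groups compared.

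The 46 genes, the other lists and the rule for naming genes were chosen with earlier results of these data known. That rule allowed all 46 genes to be named, gave full values to 9 set genes and to the called genes with the largest difference, up to 4 a direction, and took up to 3 called genes with the lowest adjusted p from each other list. Promoters came from RefSeq (GRCh38.p14), for 39 of the 46 genes, and 1 other-cell-type marker is not analysed here.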

Additional observations from a re-analysis of the deposited data

Results flagged for a closer look

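KIF20A was picked out because its cisplatin response differed between the backgrounds by the test of the difference itself. The response in shPRMT1 cells minus that in shScramble cells was 0.34 on the log2(RPKM + 1) scale (SE 0.08, adjusted p = 0.0354 by limma). It was lower with cisplatin in 6 of 6 shPRMT1 pairs and 2 of 2 shScramble pairs, so that the backgrounds differed in size and not in sign, and 7 of the 21 alternatives kept the call.

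PTTG1, the securin that holds separase inactive, was picked out because all pairs of 1 background went against all pairs of the other. It was higher with cisplatin in 6 of 6 shPRMT1 pairs, at 27.9 to 35.8 RPKM against 27.5 to 33.8 RPKM untreated, and in 0 of 2 shScramble pairs, at 28.7 and 28 RPKM against 32.4 and 33.2 RPKM untreated. The difference between the responses was 0.31 (SE 0.12, adjusted p = 0.187 by limma, and 0.0434 with the replicate block).

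KIF11 was picked out for the opposite pattern. It was higher with cisplatin in 0 of 6 shPRMT1 pairs, at 25.3 to 32.5 RPKM against 30.2 to 36.1 RPKM untreated, and in 2 of 2 shScramble pairs, at 38.1 and 34.0 RPKM against 38.0 and 33.1 RPKM untreated. The difference was -0.26 (SE 0.16, adjusted p = 0.431 by limma, and 0.0345 with the block), and the shScramble pairs differed by little more than 0.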

How the results depend on the processing

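No gene of the 46 called in either fit changed sign under any alternative run. With the replicate block, genes called lower with cisplatin in shScramble cells numbered 14, genes called higher with cisplatin in shPRMT1 cells 12, genes lower in shPRMT1 against shScramble cells 9 untreated and 15 under cisplatin (1 higher), genes whose responses differed 2 higher and 3 lower, and genes that differed among shRNAs 23 untreated and 14 under cisplatin. The block ended no call and changed no other count by over 1.5 times. TMM scaling moved the median difference with cisplatin to -0.15 in shPRMT1 cells and -0.11 in shScramble cells. For the knockdown under cisplatin, 2 genes were lower with no filter and 2 with the compared groups alone, and among shRNAs the groups alone gave 3 untreated and 0 under cisplatin. For the difference between responses, TMM, no filter and voom each gave 0 higher, and voom gave 1 lower. The cause of these shifts was not tested.

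Leaving out 1 library gave, with cisplatin in shPRMT1 cells, 3 to 8 genes higher and 12 to 20 lower (median -0.13 to -0.07). In shScramble cells it gave 0 to 1 higher and 3 to 5 lower (median -0.11 to -0.06). The knockdown gave 0 higher and 2 to 4 lower untreated (median -0.13 to -0.07), and 0 to 1 higher and 1 to 9 lower under cisplatin (median -0.14 to -0.08). The difference between responses gave 0 to 1 higher and 0 to 1 lower (median -0.04 to 0.02), and 4 to 7 genes untreated and 2 to 3 under cisplatin differed among shRNAs. Where this left a group with 1 library, that library was assumed to vary like the others. With 2 libraries a group, small differences may not be detected, and a gene that missed the threshold is not shown to be equal.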
